A study of Camellia sinensis with 9 samples.

Results

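The miR171 3p arms of the tea plant, Camellia sinensis, carry the name of a miRNA family whose 3p strands act on GRAS transcription factor genes. They were taken by name from a table of 371 named miRNAs as the 7 rows csn-miR171b_3p, csn-miR171c_3p, csn-miR171g_3p, csn-miR171h_3p, csn-miR171m_3p, csn-MIR171v_3p and csn-MIR171x_3p, written below without the species prefix. The rows miR171b_3p and miR171m_3p carry the same sequence, one spelled with U and the other with T, and hold the same counts in every library, so the 7 rows were joined into 6 sequences. No member sequence stands under another family name. The table holds 28 miR171 rows, of which 13 are 3p arms with 12 distinct sequences, and 341 distinct sequences in all. Small RNA came from flower (libraries flower1, flower2 and flower45), root (root13, root23 and root33) and leaf (leaf1, leaf23 and leaf41), each with 3 libraries from untreated plants. Neither the labels nor the table give the plants' age, cultivar, genotype or pooling. The labels do not say whether the libraries of an organ came from separate plants, so p-values measure the spread between these libraries, which may be technical.

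A plant miRNA is cut from a hairpin precursor as a duplex of a 5p and a 3p strand, and usually one of them is kept by an Argonaute protein while the other is lost. In miR171 the kept strand is normally the 3p arm, which pairs almost perfectly with the mRNAs of GRAS genes of the HAIRY MERISTEM group and leads to their cleavage. In Arabidopsis these targets keep shoot meristem cells undifferentiated and act in branching and in chlorophyll synthesis.

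The 6 sequences are shown because they overlap closely in their letters yet differed between organs, with the seed (bases 2 to 8 from the 5′ end) in capitals and the rest in lower case, 5′ to 3′, as read from the deposited table.
miR171h_3p: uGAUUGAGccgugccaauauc
miR171c_3p: uUGAGCCGugccaauaucgcg
MIR171x_3p: uUGAGCCGugccaauaucacg
miR171g_3p: uUGAGCCGcgucaauaucucu
miR171b_3p and miR171m_3p: uUGAGCCGcgucaauaucuc
MIR171v_3p: cGAGCCGAaucaauaucacuc

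By seed, the sequences formed 3 groups. miR171c_3p, MIR171x_3p, miR171g_3p and the sequence of miR171b_3p and miR171m_3p shared UGAGCCG, miR171h_3p had GAUUGAG and MIR171v_3p GAGCCGA. The seed of miR171h_3p differed by register only: its bases from position 4 onward were the first 18 bases of miR171c_3p and of MIR171x_3p without a mismatch, so that it starts 3 bases earlier and ends 3 bases earlier on the same stretch. miR171c_3p and MIR171x_3p differed by G19A, counted from the 5′ end of miR171c_3p. miR171g_3p differed from miR171c_3p at 4 positions (U9C, C11U, G19U and G21U). The sequence of miR171b_3p and miR171m_3p was the first 20 of the 21 bases of miR171g_3p. MIR171v_3p began with C, not U, and aligned to miR171g_3p from position 2, with U2C, C9A, G10A and U19A. Read by the 5 bases that follow GAGCC, which was a grouping made after the values were seen, miR171h_3p, miR171c_3p and MIR171x_3p held GUGCC, miR171g_3p and miR171b_3p held GCGUC, and MIR171v_3p held GAAUC.

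Counting each sequence once, library totals ran from 876770 to 1073284 counts in flower, 369605 to 662023 in root and 476517 to 530334 in leaf. leaf41 stood apart: over the 129 sequences tested its log2 CPM correlated at r = 0.773 with leaf1 and 0.81 with leaf23, against 0.948 between leaf1 and leaf23, and at 0.791 with root33. These correlations run across sequences, which are not independent replicates. No pair of libraries agreed within counting noise (chi-square per degree of freedom at least 76.3). Levels below are CPM, counts scaled to library size after TMM scaling between libraries, and 3 counts corresponded to 3.57 to 6.49 CPM. root13, with the lowest total, had the highest TMM factor (1.51, against 0.94 and 0.91 for root23 and root33), so its CPM depend strongly on this scaling. Library steps favour some small RNA sequences over others, so levels of different sequences are less comparable than levels of one sequence between organs. The mismatches that the authors allowed in counting are not stated, and sequences that differ by 1 base or by their ends may have taken reads from each other. In whole organs, fewer cells of a type and less RNA per cell cannot be told apart.

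The miR171 3p reads took 16.3%, 10.7% and 9.17% of all counts in flower1, flower2 and flower45, 12.2%, 6.52% and 7.19% in root13, root23 and root33, and 2.29%, 2.11% and 3.12% in leaf1, leaf23 and leaf41. Every flower and root library was above every leaf library, and flower and root overlapped. With the depth that the authors' divisor would imply as denominator, every flower library was above every root library. The 6 member sequences made up 98.4% to 99.9% of the miR171 3p reads in each library. They had the most reads (totals of 10036 to 341727, against 1 to 1834 for the other miR171 3p sequences), so a high value follows from the choice of members. As a sum over sequences chosen with earlier results known, the miR171 3p share of all counts was not tested.

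miR171h_3p, the most abundant member, was highest in flower. It stood at 133700, 92530 and 90060 CPM in flower, 39070, 35170 and 38230 CPM in root, and 15240, 11550 and 19670 CPM in leaf. The 3 organs did not overlap, in the order flower, root, leaf. The difference was log2 1.49 ± 0.29 (SE) for flower over root (adjusted p = 0.00302), 2.77 ± 0.30 for flower over leaf (adjusted p = 0.000122) and 1.28 ± 0.29 for root over leaf (adjusted p = 0.00874). The last call was weak: it was lost without flower45 (log2 0.41, adjusted p = 0.278), without leaf1 (1.12, 0.0955) or without leaf23 (1.02, 0.0945). It was also lost with DESeq2 (0.90, 0.0631), with rows not joined (0.42), with no low-count filter (0.45), in a fit of the 6 libraries alone (0.38), and when a fold of at least 2 was asked for.

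miR171c_3p was the most flower-biased member. It reached 35850, 30840 and 11520 CPM in flower, 222.5, 94.95 and 1361 CPM in root, and 862.6, 955.6 and 854.9 CPM in leaf. All flower libraries were above all others, whereas root spanned both sides of leaf, with root33 the highest of those 6. Flower exceeded root 46.6-fold (log2 5.54 ± 1.03 SE, adjusted p = 0.00271) and leaf 29.2-fold (log2 4.87 ± 0.99 SE, adjusted p = 0.00516). The root value rests on root33: without it the flower to root difference was 182-fold and root fell below leaf (log2 -2.57, adjusted p = 0.026), where with it root and leaf were not called apart (-0.67 ± 0.85, adjusted p = 0.503). Without flower45 flower exceeded root 85.1-fold.

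MIR171x_3p, which differs from miR171c_3p by 1 base, had another order in CPM, with leaf between flower and root. It stood at 10070, 11370 and 6156 CPM in flower, 258.3, 251.1 and 610.2 CPM in root, and 4567, 5259 and 1609 CPM in leaf. After TMM scaling no organ overlapped with another. By library totals flower and leaf overlapped, since flower45 (4517 of 876770 counts) fell below leaf23 (2713 of 476517). Flower exceeded root 24.6-fold (log2 4.62 ± 0.68 SE, adjusted p = 0.000675), and root was 10.2-fold below leaf (log2 -3.35 ± 0.64 SE, adjusted p = 0.00348). Flower over leaf, at log2 1.27 ± 0.59, did not pass the test (adjusted p = 0.123) except with the authors' divisor as library size (1.91, adjusted p = 0.0245). With rows not joined it was log2 0.22. Flower exceeded root 42.5-fold without root33 and 37.5-fold without flower45, and root was 16.7-fold and 22.9-fold below leaf in the same fits. Counts of miR171c_3p were 356%, 271% and 187% of those of MIR171x_3p in flower, 86.1%, 37.8% and 223% in root, and 18.9%, 18.2% and 53.1% in leaf.

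miR171g_3p turned the order round and was highest in root. It had 1500, 1979 and 1449 CPM in flower, 28300, 22220 and 22080 CPM in root, and 1386, 1518 and 3813 CPM in leaf. Root lay above every other library, and flower and leaf overlapped, with leaf41 the highest of those 6. Flower was 14.7-fold below root (log2 -3.88 ± 0.51 SE, adjusted p = 0.000524), and root 10.8-fold above leaf (log2 3.43 ± 0.50 SE, adjusted p = 0.000882; 6.36-fold without flower45). Flower and leaf were not called apart (-0.45 ± 0.45, adjusted p = 0.464), and that sign turned without leaf41 (0.26). With rows not joined flower was called lower than leaf (-1.35, adjusted p = 0.0367), but the median over all rows tested was -1.16 in that fit.

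The sequence of miR171b_3p and miR171m_3p, 1 base shorter, was by far highest in root. It counted 21, 58 and 22 reads (25.4, 68.94 and 29.98 CPM) in flower, 4166, 3495 and 3191 reads (7474, 5625 and 6905 CPM) in root, and 12, 25 and 108 reads (23.8, 48.5 and 172.6 CPM) in leaf. Flower and leaf overlapped, with leaf41 the highest of those 6 libraries. Flower was 160-fold below root (log2 -7.32 ± 0.96 SE, adjusted p = 0.000524), and root 81.3-fold above leaf (log2 6.34 ± 0.92 SE, adjusted p = 0.000882; 175-fold without leaf41, 49.9-fold without flower45). Flower over leaf was log2 -0.98 ± 0.75 (adjusted p = 0.34), and 0.25 without leaf41. Relative to the 21-base miR171g_3p, the 20-base reads numbered 1.69%, 3.48% and 2.07% in flower, 26.4%, 25.3% and 31.3% in root, and 1.72%, 3.19% and 4.53% in leaf. By this within-library ratio, which no scaling touches, all root libraries stood above all others, and flower and leaf overlapped. It was picked after the values were seen and was not tested.

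MIR171v_3p, the member with the least similar sequence, was also a root sequence. It counted 15, 32 and 46 reads (18.1, 38.0 and 62.7 CPM) in flower, 2411, 3314 and 4182 reads (4325, 5333 and 9049 CPM) in root, and 5, 3 and 28 reads (9.91, 5.82 and 44.7 CPM) in leaf. Flower and leaf overlapped far below root, and 28 of the 36 leaf reads came from leaf41. Flower was 156.8-fold below root (log2 -7.29 ± 1.02 SE, adjusted p = 0.0006; 102-fold without root33). Root exceeded leaf 303-fold (log2 8.24 ± 1.06 SE, adjusted p = 0.000605), with 756-fold without leaf41, 201-fold without root33 and 178-fold without flower45. Flower over leaf was log2 0.95 ± 0.81 (adjusted p = 0.39), and was called without leaf41 (2.39, adjusted p = 0.0298).

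**Figure D1:**
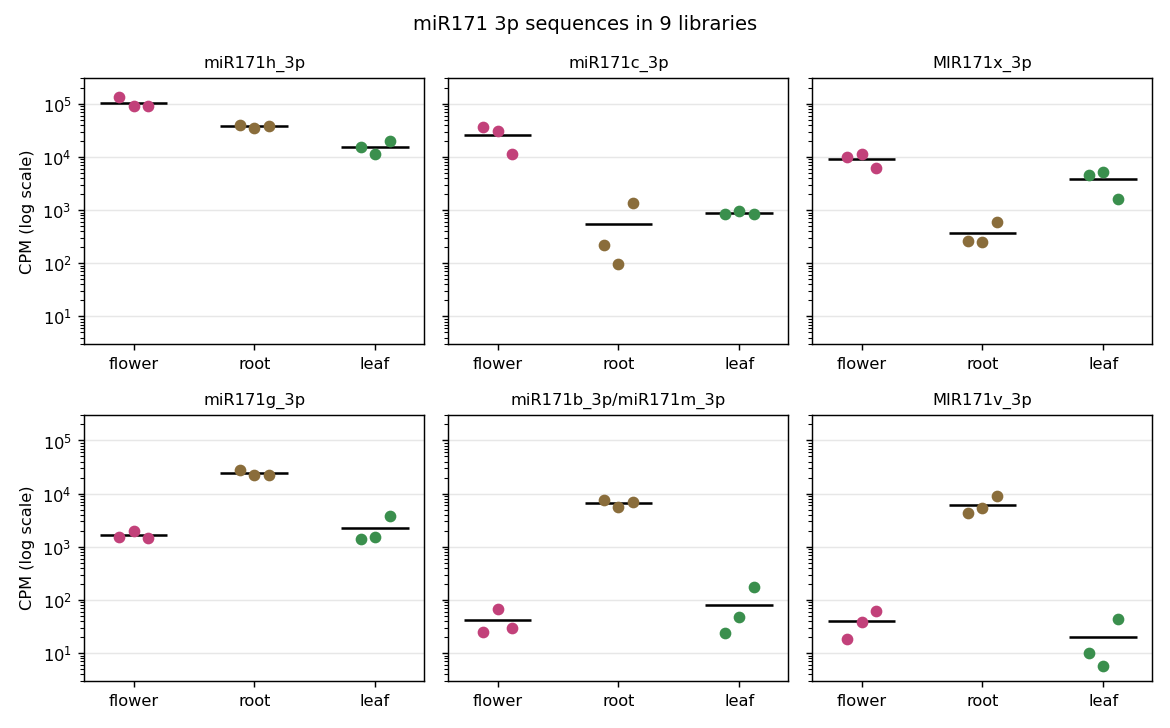
CPM after TMM scaling on a log axis for each of the 6 sequences, with 1 point per library (n = 3 per organ) and a line at the organ mean. The upper row (miR171h_3p, miR171c_3p, MIR171x_3p) is highest in flower, and the lower row (miR171g_3p, miR171b_3p with miR171m_3p, MIR171v_3p) is highest in root.

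Between flower and root all 6 sequences passed edgeR's quasi-likelihood test, 3 higher and 3 lower in flower. Over all 129 sequences tested, 18.6% were called higher and 24.0% lower in flower (24 and 31 sequences, but 37 and 29 of 131 with the authors' divisor as library size). The median log2 fold change was -1.19 over the members and -0.04 over all sequences. The first is only the midpoint between miR171h_3p (1.49) and miR171g_3p (-3.88) and lies near no member. Among the members, the 3 higher in flower had GUGCC after GAGCC and the 3 lower had GCGUC or GAAUC, while the shared seed UGAGCCG occurred on both sides. The grouping does not extend to the family: the other 2 sequences with GUGCC, miR171f_3p and MIR171t_3p, had negative values for flower over root (log2 -1.10 ± 0.71 SE, adjusted p = 0.238, and -1.02 ± 0.96, adjusted p = 0.391), which were not called. All 6 calls were made under each of 5 scalings and whichever of the 9 libraries was left out.

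Between flower and leaf 2 of 6 passed, both higher in flower (miR171h_3p and miR171c_3p), and 4 were not called. Over all sequences 17.1% were called higher and 19.4% lower in flower (22 and 25 sequences, but 30 and 21 of 131 when the divisor set the library size, or 20 and 48 of 155 unjoined rows). The median was 1.11 over the members and -0.12 over all sequences. leaf41 held 2386 of the 3868 leaf reads of miR171g_3p and 108 of the 145 of miR171b_3p with miR171m_3p.

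Between root and leaf 4 of 6 were higher in root (miR171h_3p, miR171g_3p, miR171b_3p with miR171m_3p, and MIR171v_3p), MIR171x_3p was lower in root, and miR171c_3p was not called. Over all sequences 21.7% were called higher and 13.2% lower in root (28 and 17 sequences, but 26 and 28 with DESeq2 size factors and 14 and 36 of 155 with rows not joined). The median was 2.35 over the members and 0.56 over all sequences. Relative to that median, miR171h_3p stood at 0.71, miR171g_3p at 2.87, and MIR171x_3p at -3.92. Without flower45, a library of neither organ, the root over leaf value of every member was lower. These moves are therefore not particular to 1 member.

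**Figure D2:**
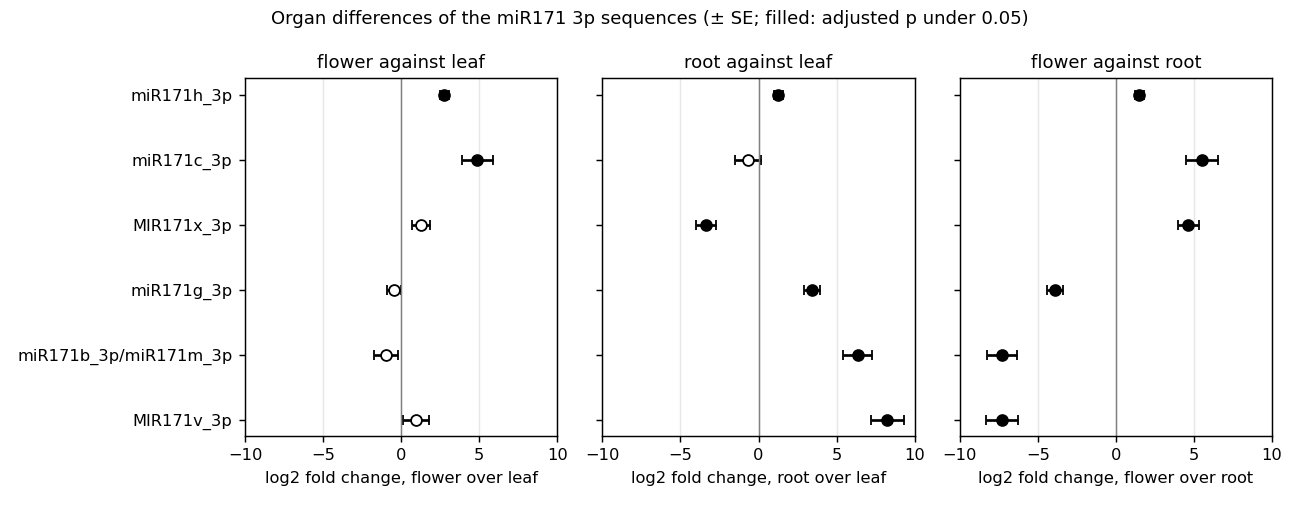
Log2 fold change of each sequence (x axis) with its SE from edgeR for flower over leaf, root over leaf and flower over root, with filled points where the adjusted p was under 0.05. Flower over root divides the 6 sequences into 3 with positive values (1.49 to 5.54) and 3 with negative values (-7.32 to -3.88).

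Shares within the miR171 3p reads of a library do not depend on scaling between libraries, and they showed 3 different mixtures. In flower miR171h_3p took 74.5% ± 7.3, miR171c_3p 17.6% ± 6.3 and MIR171x_3p 6.49% ± 1.57, and miR171g_3p 1.20% ± 0.33. In root miR171h_3p took 49.1% ± 1.4 and miR171g_3p 31.6% ± 3.5, followed by miR171b_3p with miR171m_3p at 8.69% ± 0.57 and MIR171v_3p at 8.15% ± 3.07. In leaf miR171h_3p took 67.5% ± 7.6, MIR171x_3p 17.9% ± 10.7, miR171g_3p 9.49% ± 4.35 and miR171c_3p 4.01% ± 0.84 (SD, n = 3 for every organ). The leaf mixture was uneven: MIR171x_3p took 20.6%, 27.0% and 6.09% in leaf1, leaf23 and leaf41, and miR171g_3p 6.25%, 7.80% and 14.4%.

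All 6 shares differed among the organs by an exact permutation test over the 1680 arrangements of the 9 libraries, adjusted over the 6 shares. The adjusted p was 0.00714 for miR171c_3p, miR171g_3p and miR171b_3p with miR171m_3p, whose raw p of 0.00357 is the smallest the design can give. It was 0.0214 for miR171h_3p and MIR171v_3p and 0.0393 for MIR171x_3p. Shares of one total move against each other, so the 6 tests are not independent. With 1 root library left out, whichever it was, 3 of 6 shares passed, and those of miR171h_3p, miR171c_3p and MIR171x_3p did not.

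All 12 sequences were also summed by the 5 bases after GAGCC. Those with GUGCC held 98.6% ± 0.4 (SD, n = 3 per organ) of the flower miR171 3p reads, 50.5% ± 1.2 of the root ones and 89.5% ± 4.9 of the leaf ones. Those with GCGUC held 1.23% ± 0.34 of the flower, 40.3% ± 3.8 of the root and 9.83% ± 4.63 of the leaf miR171 3p reads. No organ overlapped with another by either sum, although leaf41 (84.0% and 15.1%) was the leaf library nearest to root. By seed, the GAUUGAG register took 74.5% ± 7.3 in flower, 49.1% ± 1.4 in root and 67.5% ± 7.7 in leaf, where flower and leaf overlapped. The GUGCC sum was carried by miR171h_3p, miR171c_3p and MIR171x_3p. The other 2 GUGCC sequences, miR171f_3p and MIR171t_3p, together held 0.0516% ± 0.0199 of the flower, 0.203% ± 0.016 of the root and 0.101% ± 0.058 of the leaf miR171 3p reads, with the highest share in root. These sums group sequences after their values were seen and were not tested.

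**Figure D3:**
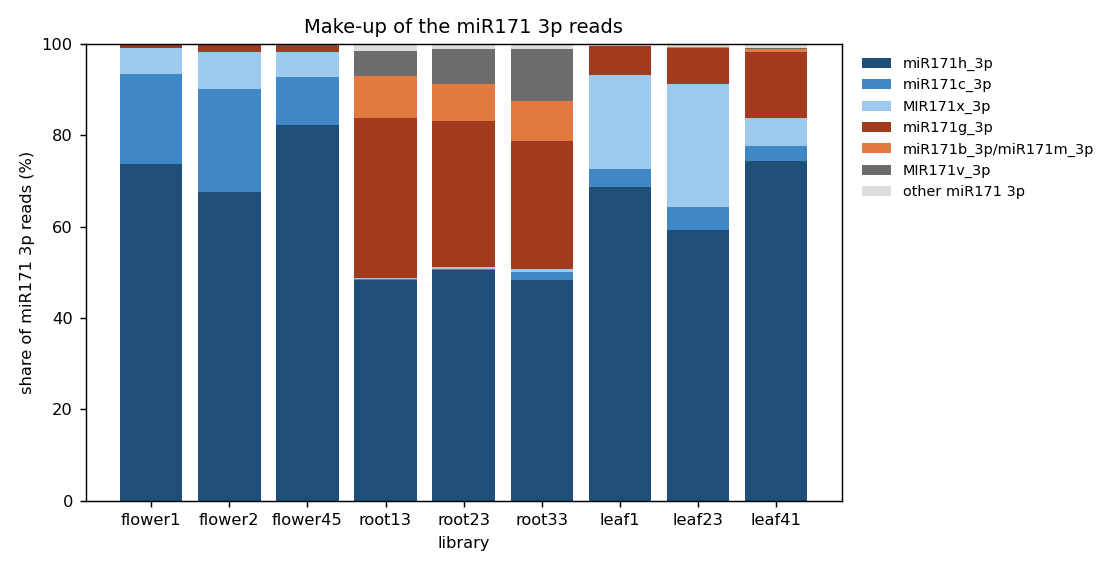
Share of each sequence in the miR171 3p reads of each library, in percent, as stacked bars for the flower, root and leaf libraries. Blue shades mark miR171h_3p, miR171c_3p and MIR171x_3p, which fill nearly all of the flower bars, whereas in the root bars miR171h_3p fills 49.1% on average and orange shades (miR171g_3p, miR171b_3p with miR171m_3p) and dark grey (MIR171v_3p) fill most of the rest.

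The opposite strand was compared within each name. Arms were paired by name only, on the assumption that both come from one hairpin, which was not tested. For miR171h, miR171c, miR171g and MIR171x the 3p arm made up 99.6% to 99.96% of the reads of both arms. MIR171z_5p, the 5p row with the most reads (59688 in all), has no 3p row of its name and is not part of this comparison. In MIR171v the 3p arm made up 63.9%, with 93 reads of 3p and 48 of 5p in flower, 9907 and 5599 in root, and 36 and 11 in leaf. Both MIR171v arms were thus root sequences: MIR171v_5p was 167.2-fold lower in flower than in root (log2 -7.39 ± 1.43 SE, adjusted p = 0.00302). MIR171v had too few leaf reads for the test of the ratio.

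The arms of miR171b went opposite ways. Its 5p arm counted 30, 106 and 50 reads in flower, 0, 0 and 1 in root, and 27, 29 and 7 in leaf, where the 3p sequence was highest in root. miR171b_5p was higher in flower than in root (log2 6.53 ± 1.24 SE, adjusted p = 0.00298) and lower in root than in leaf (-5.60 ± 1.22, adjusted p = 0.00806). The log2 ratio of 3p to 5p, with 0.5 added to each count, averaged -0.85 ± 0.33 (SD, n = 3 per organ) for flower, 12.3 ± 1.1 for root and 0.84 ± 2.66 for leaf. The 3p reads cannot be divided between miR171b and miR171m, and no 5p row of miR171m is listed, so the ratio belongs to the sequence and not to one hairpin.

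For miR171h the 5p arm counted 64, 49 and 69 reads in flower, 0, 0 and 3 in root, and 20, 10 and 19 in leaf, beside 254474, 61298 and 25955 reads of the 3p arm summed per organ. By edgeR miR171h_5p was lower in root than in leaf (log2 -3.79 ± 1.11 SE, adjusted p = 0.0295). The 3p arm was higher in root than in leaf, but that call was weak. It was lost with DESeq2, with rows not joined, and without flower45, leaf1 or leaf23. MIR171x_5p had no read in any leaf library, against 6023 reads of MIR171x_3p there. Among the 6 names with at least 10 reads of both arms together in every library, the ratio differed among organs by the exact permutation test for 5 (adjusted p = 0.0214 for miR171h, 0.0321 for miR171b, and 0.0471 for miR171c, miR171g and MIR171x) and not for miR171d1 (adjusted p = 0.429). The 3p arm alone met that limit for every name. miR171c had 29 reads of 5p in all. In root, and for MIR171x also in leaf, miR171h, miR171b and MIR171x had 0 to 3 reads of 5p per library. There the ratio rests largely on the 3p count and the 0.5 added, so this test alone does not show a change between the arms. These calls depended on the settings: with 1 added to each count 2 passed, and 0 passed without flower2, without leaf23 or without leaf41. With 1 left out among the others, 1 (without leaf1) to 5 (without flower1 or flower45) passed, with 2 without root23 and 3 without root13 or root33.

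**Figure D4:**
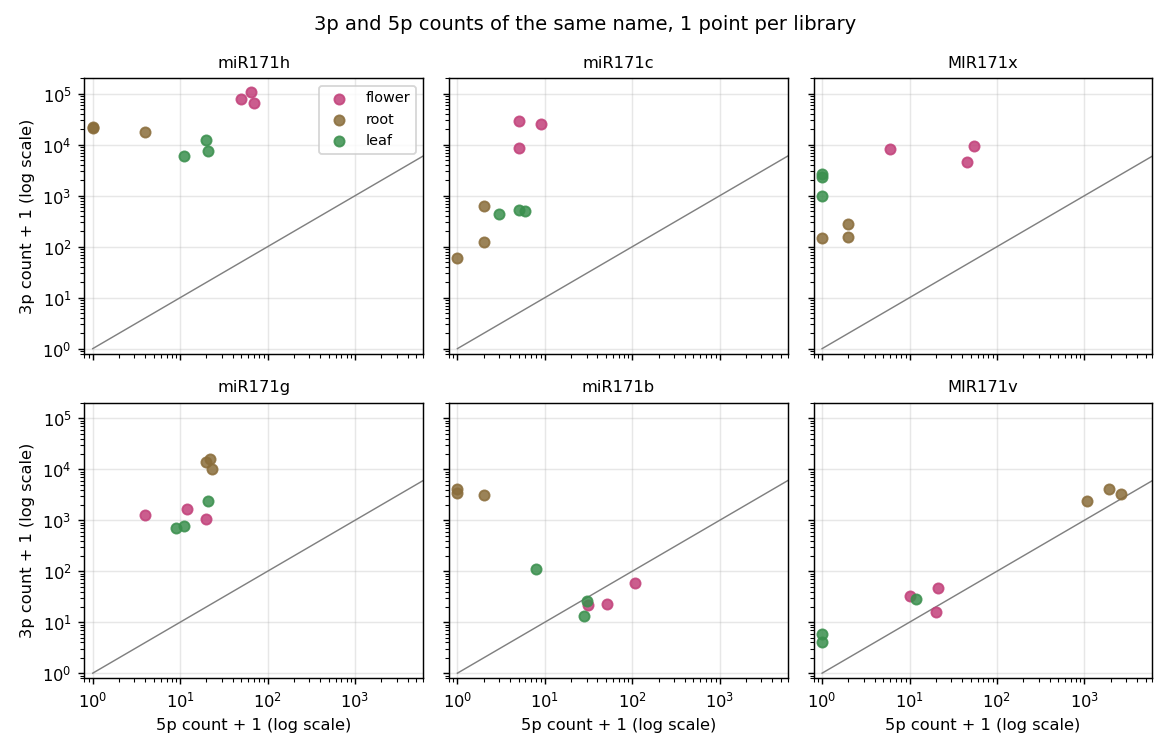
3p count against 5p count of the same name, each with 1 added, on log axes, with 1 point per library coloured by organ and a line of equal counts. MIR171v lies near the line in all organs, and miR171b has its root libraries far above the line, with at most 1 read of 5p, and its flower libraries below it.

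Of the 6 other miR171 3p rows, 4 passed the filter on low counts. miR171d1_3p, whose sequence is also listed as MIR845g-3p so that its family cannot be told, was higher in root, averaging 113 ± 93 CPM (SD, n = 3 per organ) for flower, 829 ± 281 CPM for root and 124 ± 73 CPM for leaf (flower over root log2 -2.88, adjusted p = 0.0239, and root over leaf 2.73, adjusted p = 0.0371). miR171f_3p and MIR171t_3p start 1 base before miR171h_3p on the same stretch, without a mismatch. miR171f_3p had 68.95, 10.7 and 39.52 CPM in flower, 75.35, 88.51 and 93.05 CPM in root, and 15.86, 9.69 and 20.77 CPM in leaf. MIR171t_3p had 44.76, 28.53 and 29.98 CPM in flower, 82.53, 45.06 and 82.23 CPM in root, and 3.97, 0.0 and 22.37 CPM in leaf. Both had lower values in flower than in root (log2 -1.10 and -1.02), whereas miR171h_3p was higher in flower. Neither difference was called by edgeR (adjusted p = 0.238 and 0.391), and both rest on 9 to 57 reads per flower or root library. miR171f_3p was higher in root than in leaf (log2 2.45 ± 0.75 SE, adjusted p = 0.0341), and MIR171r_3p higher in flower than in leaf (3.12 ± 0.93, adjusted p = 0.0269). MIR171t_3p was called in no comparison, and the 2 left out by the filter had 1 and 3 reads in all. Of 15 rows of the 5p arm 6 were tested, with 3 higher and 2 lower in flower than in root, 1 higher in flower than in leaf, and 2 higher and 2 lower in root than in leaf. Over all 129 sequences tested the matching counts were 24 and 31, 22, and 28 and 17.

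A list of 12 other conserved families that act on transcription factor genes (miR156, miR157, miR159, miR160, miR164, miR165, miR166, miR167, miR169, miR172, miR319 and miR396) gives a frame. Of its 62 tested sequences, 12 were higher and 16 lower in flower than in root (median log2 0.07), 15 and 15 against leaf (median -0.17), and 11 higher and 7 lower in root than in leaf (median 0.79). Over all 129 sequences tested, 18.6% and 24.0%, 17.1% and 19.4%, and 21.7% and 13.2% were called in the same order. The counts of the list are not read as a trait of its families.

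The most similar profiles were sought among the other 128 tested sequences by the root mean square difference of log2 CPM, centred over the 9 libraries, where a lower value means more alike. For miR171c_3p the nearest was MIR171z_5p (0.78; median over all 3.21), a 5p row with no listed 3p partner that had 32970, 20970 and 17510 CPM in flower, 80.7, 107.8 and 975.9 in root, and 394.6, 387.7 and 1574 in leaf, followed by miR172f_3p (1.21). For MIR171x_3p the nearest was miR171b_5p (0.50), followed by the sequence of miR166d_5p and MIR166p_5p (0.58). For miR171b_3p with miR171m_3p the nearest were MIR171leave_5p (0.89) and MIR171v_3p (1.02), and for MIR171v_3p its own 5p arm (0.65) and miR171b_3p with miR171m_3p (1.02). miR171g_3p was nearest to MIR159d_5p (0.48) and miR5301_3p (0.56), and miR171h_3p to the sequence listed as miR166h_3p, MIR166o_3p and MIR845h-3p (0.46) and to miR167f_3p (0.48). These distances describe 9 libraries and were not tested.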

How the data were processed

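The deposited table gives, per the file headers, 1 column of counts per library, which hold whole numbers, and beside each a normalised score named RPTM, rounded by the authors. RPTM equals the count divided by 1 constant per library (2.11 to 2.25). The header does not define it, and it served only as an alternative library size. Per the labels' protocols, RNA was extracted with TRIzol and libraries followed Illumina protocols after ribosomal RNA removal. For trimming, alignment, counting and build, nothing is given in the sources used here. The header writes leave for leaf. The table's 1 blank row was left out.

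Rows of equal sequence were joined. The test was edgeR's quasi-likelihood F test on the counts (edgeR 4.0.16, R 4.3.3, glmQLFit, glmQLFTest; TMM, filterByExpr, all 9 libraries, organ as the only factor, Benjamini-Hochberg at 0.05), which left 129 sequences with 99.97% of the counts. SE is the absolute log2 fold change over the square root of F. Shares and arm ratios were compared with exact permutation tests of the F statistic over the 3 organs. The steps were tested on simulated data. Alternatives were DESeq2 1.42.0, other scalings, unjoined rows, no filter, a fold of at least 2, 6 libraries alone, and leaving out each library. Named were all members, their 5p rows and the 2 nearest profiles of each member. Members and lists were chosen with earlier results of these data known. Genomic positions, hairpins and GRAS targets were not analysed here.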

Additional observations from a re-analysis of the deposited data

How the results depend on the processing

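The number of members called stayed within 1.5 times the reported one under every alternative. It was 6 of 6 between flower and root in all, 2 or 3 between flower and leaf, and 4 to 6 between root and leaf. The members behind a count changed. Between flower and leaf the added call was MIR171x_3p with the authors' divisor, miR171g_3p with rows not joined and MIR171v_3p without leaf41. Between root and leaf, miR171h_3p was lost and miR171c_3p gained with no low-count filter. The scaling shifted the median log2 fold change of all sequences, most with rows not joined (-1.04 for flower over leaf, -0.91 for root over leaf), but each member moved with it, and relative to that median miR171h_3p stayed at 2.87 to 2.98 for flower over leaf and at 0.70 to 0.82 for root over leaf. Signs of values that were not called turned for miR171g_3p (0.0799 with the authors' divisor, and -0.88 to 0.26 with 1 library left out, the highest without leaf41), miR171b_3p with miR171m_3p (-1.51 to 0.25, the highest without leaf41) and MIR171v_3p (-0.0082 with rows not joined), all flower over leaf. In the fits with rows not joined, miR171g_3p was called lower in flower than in leaf (-1.35, adjusted p = 0.0367), and miR171c_3p lower in root than in leaf with no low-count filter (-1.83, adjusted p = 0.0167). The flower minus root difference of the MIR171x log2 arm ratio was 0.75, and turned to -0.28 with 0.1 added and to -0.42 without flower1. The cause was not tested. With 1 added to each count 2 arm ratios passed, and leaving out 1 library gave 0 to 5. For the shares leaving out 1 library gave 3 to 6. The miR171 3p share fell by construction with other denominators, to 7.45% in flower, 5.28% in root and 1.49% in leaf with all rows, and to 0.538%, 0.189% and 0.0576% in the same order with the depth that the authors' divisor would imply. No paired analysis was possible because the organs share at most 1 number in their labels. Depth limits the leaf and flower values of MIR171v_3p and MIR171v_5p and the values of miR171b_5p, miR171c_5p, miR171g_5p, miR171h_5p and MIR171x_5p, which rest on few reads.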
